A study of Danio rerio with 6 samples.

Results

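The circadian genes *bhlhe40* and *per1b* were followed in 6 one-colour Agilent arrays of whole zebrafish embryos at 4 days post fertilisation (dpf). The members were the probes whose accession, with the version ignored, is NM_212679 (*bhlhe40*) or NM_212439 (*per1b*). Each gene had 1 probe with 1 spot per array, so 2 of the 1746 genes that could be named through RefSeq accessions are described here. Of the 6 arrays, 3 held wild-type RNA (replicate numbers 2, 3 and 4) and 3 held RNA of *vhl* mutants (numbers 1, 3 and 4), and every RNA came from a pool of 30 embryos of a TL/LWT mixed strain raised at 28 °C. The mutation is described in the study as homozygous, and the methods name a *vhl* hu2117 line crossed with a *phd3*:EGFP reporter without saying whether the array embryos carried the reporter. The labels name no treatment of the embryos, and neither their lighting nor the time of day at which they were frozen is given in the sources used here. Pools are described as separate batches of embryos but not as separate clutches, so p-values measure the spread between these pools.

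The vertebrate circadian clock is a feedback loop of transcription. The activators CLOCK and BMAL bind E-box elements and switch on the *per* and *cry* genes, whose products return to repress them. The basic helix-loop-helix protein encoded by *bhlhe40* (also known as DEC1) is a second kind of repressor, which competes for E-boxes, while *per1b* encodes a PERIOD protein of the main loop. In zebrafish, clocks run in most tissues and can be set directly by light. In mammalian cells *bhlhe40* is also known as a target of Hypoxia Inducible Factor (HIF). The α subunit of HIF is marked for degradation with the help of the *vhl* product. For *per1b*, the study lists known zebrafish hypoxia response elements, the sites that HIF binds. It reports HIF binding peaks at some of them, but not all, in *vhl* mutant embryos, and a further peak in the first intron of the gene. The comparison here asks whether the RNA of either gene changes when degradation of the α subunit is lost.

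Both probes were well above background on all 6 arrays, with 0 saturated and 0 outlier-flagged spots. The hypoxia marker *egln3* served as the check that the *vhl* mutant arrays differed. Of 6 listed HIF pathway symbols, only this 1 had a named probe, and its symbol came through the study's probe tables. These tables include genes selected on these same arrays, so the check is not independent evidence. The gene *egln3* encodes a prolyl hydroxylase acting on HIF. Its log2 intensities were 8.98, 8.80 and 8.95 in wild-type and 16.02, 15.70 and 15.32 in *vhl* mutant replicates 1, 3 and 4. The groups were thus far apart in this gene, with replicate 1 the highest of the mutants. Over all probes, replicate arrays correlated at 0.979 or more (Pearson's r across probes, a description only), and *vhl* mutant replicate 1 stood apart on the second principal component (-55.3, against 3.84 to 24.8 for the other arrays). The 3 wild-type arrays lay on one slide and the 3 *vhl* mutant arrays on another, with 0 slides holding both groups, so that an effect of the slide or its scan cannot be told apart from one of genotype.

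The first question was whether either gene differed between the genotypes. Neither did beyond the spread between replicates. Both group means were higher in *vhl* mutants after quantile normalisation, and both were lower with median scaling (log2 fold changes of -0.35 for *bhlhe40* and -0.24 for *per1b*). With 2 spots of very high local background left out before median scaling, a setting chosen after seeing the data, they were 0.12 and 0.21. The log2 intensity of *bhlhe40* was 13.60, 12.93 and 12.004 in wild-type replicates 2, 3 and 4, and 11.94, 13.86 and 13.93 in *vhl* mutant replicates 1, 3 and 4. The groups overlapped fully, since *vhl* mutant replicate 1 was the lowest of the 6 arrays while the other 2 mutant arrays were the highest. Group means were 12.84 ± 0.80 and 13.24 ± 1.13 (SD, n = 3 per group). They differed by 0.40 on the log2 scale (standard error 0.64). The 95% interval ran from -1.16 to 1.95, that is from 0.448-fold to 3.87-fold, and limma gave a Benjamini-Hochberg adjusted p of 0.694. Over the 20 regroupings of the arrays a two-sided exact permutation test gave p = 0.6, where 3 arrays against 3 cannot go below 0.1.

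For *per1b* the log2 intensity was 12.70, 12.16 and 11.26 in wild-type replicates 2, 3 and 4, and 12.58, 12.42 and 12.63 in *vhl* mutant replicates 1, 3 and 4. The mutant arrays lay close together inside the wild-type range, below wild-type replicate 2 and above the other 2 wild-type arrays. Group means were 12.04 ± 0.72 and 12.54 ± 0.11 (SD, n = 3 per group). They differed by 0.50 on the log2 scale (standard error 0.34, limma adjusted p = 0.339). The 95% interval of this change was -0.33 to 1.33, that is 0.796-fold to 2.52-fold, and the exact permutation p was 0.4.

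The spread was also present in the signals before any correction, although the order of the arrays was not the same throughout. The median spot signal of *bhlhe40* was 14053.5, 8357.5 and 4576.5 in wild-type and 3451, 12427 and 15028 in *vhl* mutants, in the replicate order above. That of *per1b* was 7589, 4909 and 2689 in wild-type and 5426, 4463 and 6020 in *vhl* mutants. Before correction *bhlhe40* in *vhl* mutant replicate 3 lay below wild-type replicate 2, and *per1b* in *vhl* mutant replicate 3 lay below wild-type replicate 3, both the reverse of the normalised values. The local background of these spots was 29 or less throughout.

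**Figure D1:**
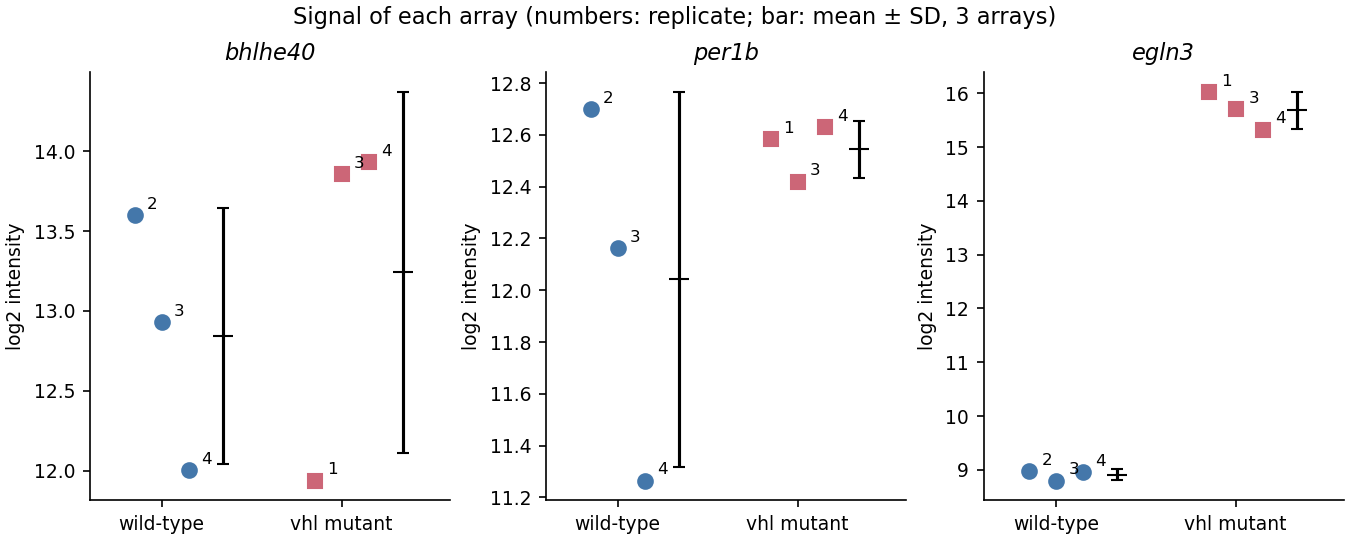
Log2 intensity after quantile normalisation (y axis, scale differs between panels) of *bhlhe40*, *per1b* and the hypoxia marker *egln3* on each array, with wild-type as circles, *vhl* mutants as squares, replicate numbers beside the points, and the mean ± SD of 3 arrays as a bar. The groups overlap for *bhlhe40* and *per1b* and are far apart for *egln3* (8.98 or less against 15.32 or more).

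At an adjusted p of 0.01 with a 2-fold change, limits taken from the methods, which do not say whether their p was adjusted, 0 of the 2 genes passed in limma, against 3.22% of all 41031 probes. With no fold limit and an adjusted p of 0.05, 0 of 2 passed, against 24.4% of all probes (11.7% higher and 12.7% lower), and at an unadjusted p of 0.05 also 0 of 2, against 37.5% of all probes. The *vhl* mutant arrays lay wholly above or wholly below the wild-type arrays for 0 of the 2 genes, against 43.7% of all probes (21.3% above and 22.4% below). Single arrays decided the size of the estimates. The *bhlhe40* change was 1.05 (adjusted p = 0.127) without *vhl* mutant replicate 1 and -0.025 (adjusted p = 0.985) without wild-type replicate 4. The *per1b* change was 0.83 (adjusted p = 0.106) without wild-type replicate 2 and 0.11 (adjusted p = 0.704) without wild-type replicate 4. With the processed signal of the extraction software in place of the median signal, and quantile normalisation kept, the *bhlhe40* change was 0.05.

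**Figure D2:**
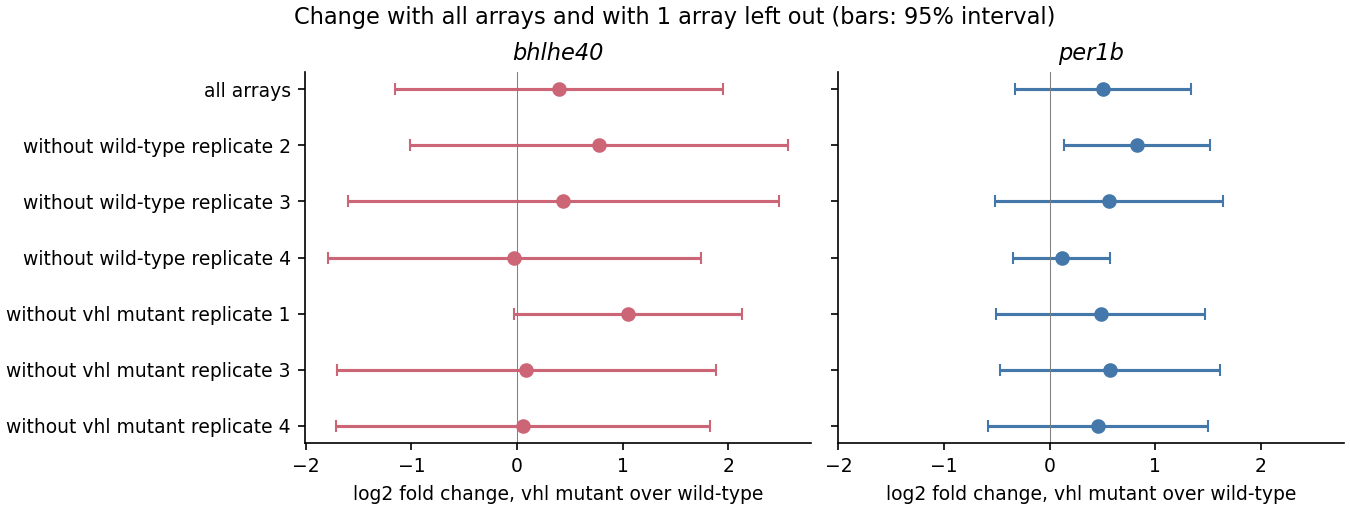
Log2 fold change of *vhl* mutant over wild-type (x axis) with all arrays and with each array left out in turn (rows), where points are limma estimates and bars their 95% intervals before any adjustment. The *bhlhe40* estimate moves between -0.025 and 1.05 with the array left out, and that of *per1b* between 0.11 and 0.83.

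The second question was how the genes varied between pools of the same genotype. Both were among the most variable transcripts in wild-type. The SD between wild-type arrays was 0.80 for *bhlhe40* and 0.72 for *per1b* on the log2 scale, against a median of 0.0959 over the 24255 probes well above background on all 6 arrays. Only 133 of these probes (for *bhlhe40*) and 182 (for *per1b*) had a larger SD in wild-type. The highest and lowest wild-type pools thus differed 3.02-fold in *bhlhe40* and 2.70-fold in *per1b*. Among *vhl* mutants the genes parted. The SD of *bhlhe40* was 1.13, larger than in 99.3% of these probes, whereas that of *per1b* was 0.11, below the median of 0.164 and larger than in 31.1% of them. The low *per1b* value depended on the scaling: it was 0.33 with 75th percentile scaling and 0.95 with median scaling, where that of *bhlhe40* was 1.03. With 2 spots of very high local background on *vhl* mutant replicate 3 left out as well, it was 0.13 and 0.16. Without *vhl* mutant replicate 3 it was 0.03 after quantile normalisation. In *bhlhe40* that spread came from replicate 1, as replicates 3 and 4 differed by 0.07.

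**Figure D3:**
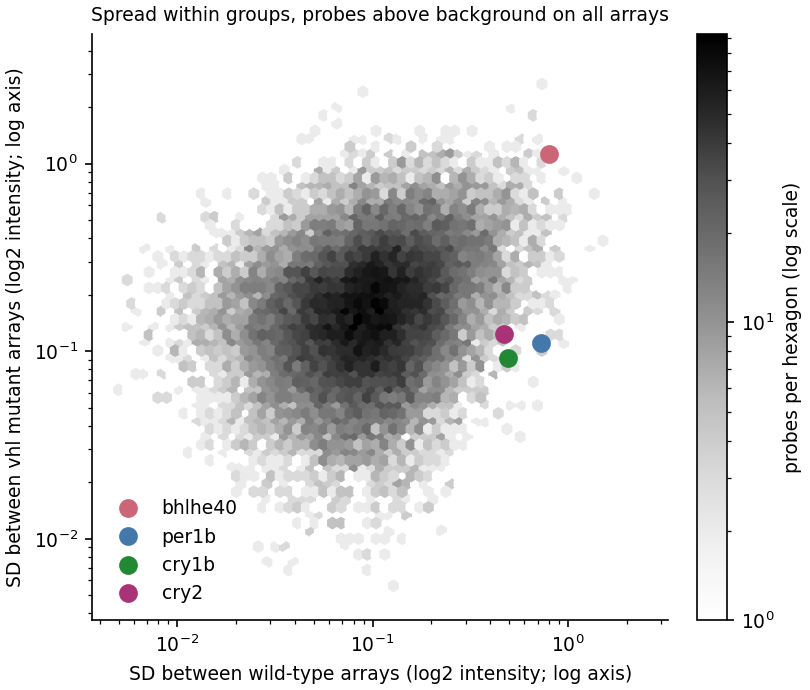
SD of log2 intensity between the 3 wild-type arrays (x axis, log scale) and between the 3 *vhl* mutant arrays (y axis, log scale) for 24128 probes well above background on all arrays (127 with an SD under 0.005 in either group are not drawn), shaded by the number of probes per hexagon. *bhlhe40* lies at the upper right (0.80 and 1.13), while *per1b* (0.72 and 0.11), *cry1b* and *cry2* lie to the right with a low mutant SD.

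The genes were then compared array by array, each as its log2 deviation from its own wild-type mean, because levels of different probes cannot be set against each other. In wild-type the deviations were almost equal. They were 0.75 for *bhlhe40* and 0.66 for *per1b* in replicate 2, 0.09 and 0.12 in replicate 3, and -0.84 and -0.78 in replicate 4. The difference between the genes (*bhlhe40* minus *per1b*) thus stayed between -0.06 and 0.10, although each gene moved by more than 1.4 on the log2 scale across these pools. All 3 pairs of wild-type arrays differed in the same direction in both genes, as did 2 of the 3 pairs of *vhl* mutant arrays. Pairs share arrays and are not independent.

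In *vhl* mutants the deviations from the wild-type mean, which include any shift between the groups, were not near equal in any of the 3 pools. In 1 of them the genes deviated in opposite directions. From replicate 3 to replicate 4 both genes rose a little, *bhlhe40* by 0.07 and *per1b* by 0.21. In replicate 1 *bhlhe40* deviated by -0.91 and *per1b* by 0.54, a difference between the genes of -1.45. In replicates 3 and 4 *bhlhe40* stood at 1.01 and 1.09 and *per1b* at 0.38 and 0.59, so that *bhlhe40* exceeded *per1b* by 0.64 and 0.50. *bhlhe40* was therefore further from its wild-type mean than *per1b* in all 3 mutant arrays, downwards in one and upwards in the others. The mean difference between the genes was -0.11 in *vhl* mutants (SD 1.16, n = 3) against 0 by construction in wild-type (SD 0.09, n = 3). The exact two-sided permutation test gave p = 1. Without *vhl* mutant replicate 1 the mean difference was 0.57 with an exact permutation p of 0.1, the smallest that 2 arrays against 3 can give. That array was the only mutant array with a negative difference, so this separation follows from the array left out. Without *vhl* mutant replicates 3 and 4 in turn the mean difference was -0.48 and -0.41, with an exact permutation p of 0.7 each time.

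**Figure D4:**
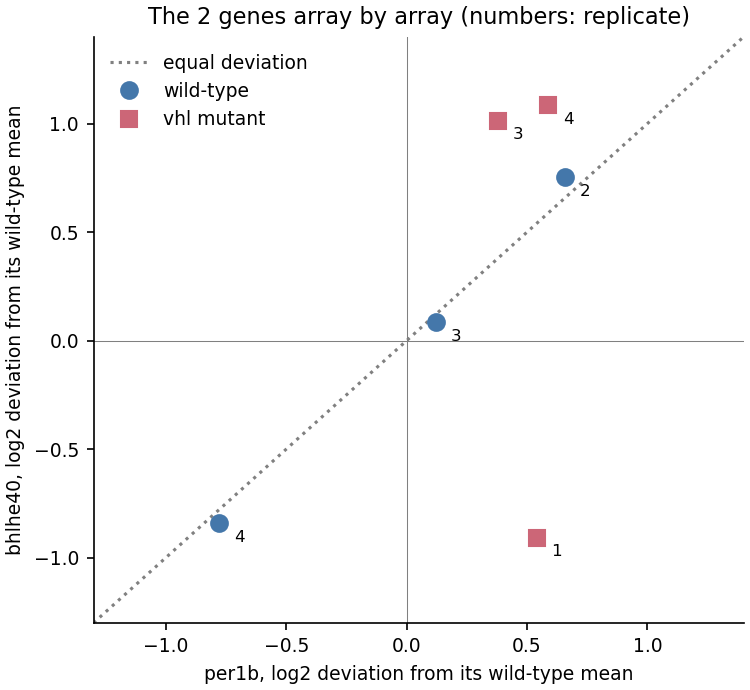
Log2 deviation of *bhlhe40* (y axis) against that of *per1b* (x axis), each from its own wild-type mean, for the 3 wild-type arrays (circles) and the 3 *vhl* mutant arrays (squares), with replicate numbers and the line of equal deviation. The wild-type arrays lie along the line, *vhl* mutant replicates 3 and 4 above it and *vhl* mutant replicate 1 far below it (-0.91 against 0.54).

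The drop of *bhlhe40* in *vhl* mutant replicate 1 was large for that array. It lay below both other mutant arrays by at least 1.92, a gap reached by 48 of the 24255 probes (*bhlhe40* included), and 33 probes lay above both others by that much. The hypoxia marker *egln3* was not low in this pool but at its highest (16.02), and *per1b* was within 0.05 of replicate 4. This array also stood apart over all probes, as given above, and the part of that in the *bhlhe40* value was not tested. In wild-type, replicate 2 exceeded replicate 4 by as much as in *per1b* (1.43) for 46 of the 24255 probes, and the reverse held for 31. A stepwise pattern with replicate 2 above replicate 3 and replicate 3 above replicate 4 by at least 0.5 each was seen in 29 probes, and the opposite order in 8. The order counted is that of *bhlhe40* and *per1b* themselves, so their place among the 29 was fixed in advance. Of the 29, 5 had a gene symbol. Besides *bhlhe40* and *per1b* these were *mef2ca* (a muscle and heart transcription factor), *si:dkey-122c11.1* and *si:dkey-69o16.5*.

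The genes whose pattern came closest were listed next. Likeness was the root mean square (RMS) difference between log2 values over the 6 arrays, after centring each gene on its own mean, among 1382 other RefSeq-named probes that were well above background throughout 1 group or both. For *per1b* the closest was *cry1b*, at an RMS difference of 0.197, and the next was *cry2*, at 0.209. Both encode cryptochromes, the proteins that act with PERIOD proteins in the repressing arm of the clock. The following 3 were *cdc42se1* (0.223), *si:dkey-122c11.1* (0.247) and *tmem30aa* (0.273). Over 20 other settings with all 6 arrays, some of which leave the values themselves as they are, *cry1b* and *cry2* were the 2 closest genes in 17. In the other 3, which were 75th percentile scaling, median scaling and no normalisation, *cry2* was the second and *cry1b* the seventh. With the 2 spots of very high local background left out, *cry1b* and *cry2* were the 2 closest in these 3 settings too. These scalings only shift whole arrays, which leaves the RMS difference between genes unchanged. Each set of 3 is thus 1 result, and the 20 settings are not 20 separate checks.

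The values behind this likeness are plain in each array. *cry1b* had log2 intensities of 9.20, 8.62 and 8.22 in wild-type replicates 2, 3 and 4, and 9.03, 9.22 and 9.11 in *vhl* mutant replicates 1, 3 and 4. *cry2* had 10.20, 10.004 and 9.30, and then 10.18, 10.41 and 10.21. As in *per1b*, replicate 2 was the highest and replicate 4 the lowest wild-type pool, and the mutant pools were close together near the highest wild-type pool. Their log2 fold changes of 0.44 and 0.44 (limma adjusted p = 0.232 and 0.227) lay near the 0.50 of *per1b* and did not pass the threshold either. Over the wild-type arrays alone, a comparison chosen after these values were seen, the RefSeq-named gene closest to *per1b* was *bhlhe40*: its RMS difference was 0.0700 and 0 of the other genes were closer, also in each of those 20 settings. Seen from *bhlhe40*, no gene was closer than *per1b* in 12 of the 20 settings, and 1 gene was in the rest. Over the *vhl* mutant arrays alone the RMS difference of *bhlhe40* from *per1b* was 0.951 and 1373 of the 1382 genes were closer to *per1b*. For *cry1b* and *cry2*, 7 and 5 genes were closer to *per1b* over the wild-type arrays alone. Over the *vhl* mutant arrays alone 635 and 824 of the 1382 were closer. The RMS differences themselves were 0.226 and 0.223 in wild-type and 0.157 and 0.189 in *vhl* mutants. As *per1b* varied little between the mutant arrays (SD 0.11), many genes lay near it there. The mutant ranks therefore cannot tell whether these genes moved alike.

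For *bhlhe40* over all 6 arrays none of the 1382 RefSeq-named probes was as close as *cry1b* and *cry2* were to *per1b*. The RMS difference also grows with the spread of a gene, which was larger in *bhlhe40* than in *per1b*. The 5 nearest were *opn1mw2* (a green cone opsin), *znf1186*, *cnpy4*, *hspb9l* and *si:ch211-196f5.2*, at RMS differences of 0.509 to 0.548. The log2 fold change of *opn1mw2* was -0.07, against -1.84 for the related opsin *opn1mw1*. Whether its probe also reads related opsin copies was not tested. In all 5 nearest genes replicate 1 was the lowest of the mutant arrays, as in *bhlhe40*, but the wild-type arrays lay closer together. In *opn1mw2* the wild-type deviations were 0.22, -0.11 and -0.10. *per1b* itself lay at 0.676 from *bhlhe40*, with 53 genes closer.

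**Figure D5:**
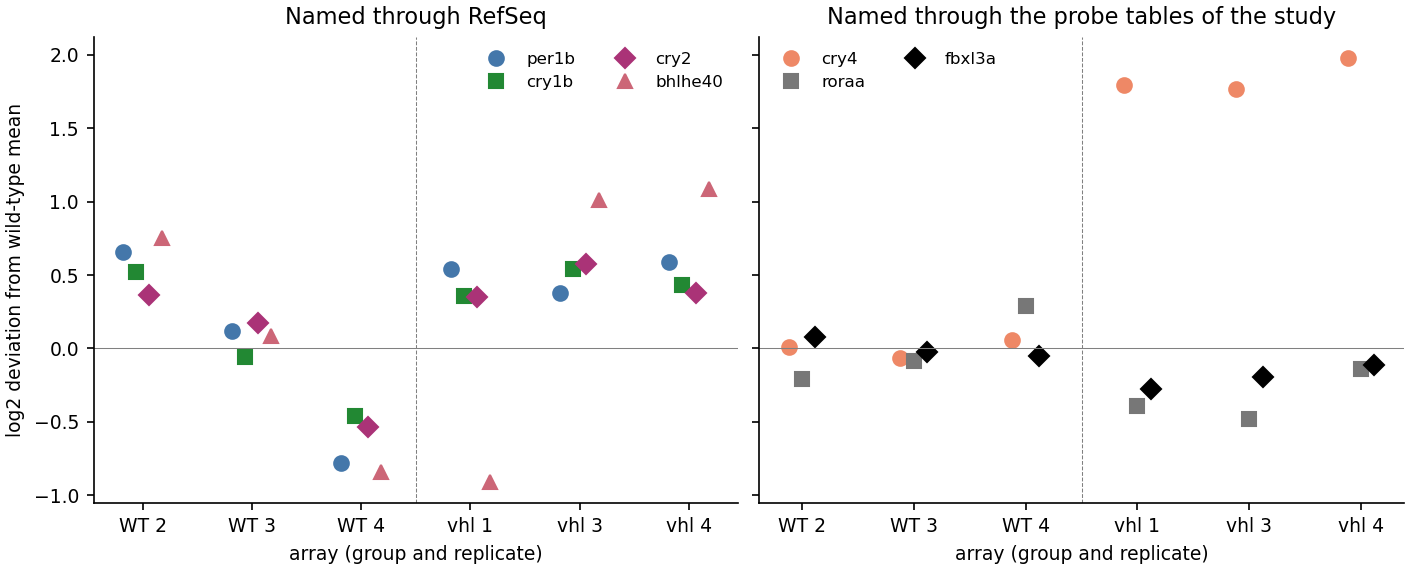
Log2 deviation from the wild-type mean (y axis) on each array (x axis, group and replicate) for the 7 core clock genes with a named probe, those named through RefSeq on the left and those named through the probe tables of the study on the right. On the left, all 4 genes are highest in wild-type replicate 2 and lowest in wild-type replicate 4 among wild-type arrays, and only *bhlhe40* is low in *vhl* mutant replicate 1, while *cry4* on the right is higher in all mutant arrays by about the same amount.

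The wider clock was measured in part. Of 53 core clock symbols listed, 7 had a named probe, including the members, *cry1b* and *cry2*. In *vhl* mutants 1 of the 7 rose and 0 fell, against 1.67% and 1.55% of all probes, and the median log2 fold change of the list was 0.44, against -0.000174 over all probes. The riser was *cry4*, another cryptochrome, with log2 intensities of 11.06, 10.99 and 11.11 in wild-type and 12.85, 12.82 and 13.03 in *vhl* mutants. Its groups were far apart and its wild-type spread was small, with an SD exceeding that of 26.0% of probes, quite unlike the other cryptochromes. The log2 fold change was 1.85 (95% interval 1.65 to 2.04, limma adjusted p = 0.000417). Its symbol was known here only through a table of genes that the study selected on these same arrays, so its call is not independent evidence. The call was lost with 75th percentile scaling, median scaling and no normalisation. It held in these settings once the 2 spots of very high local background were left out.

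The remaining 2 genes carried symbols from another probe table of the study. *roraa* encodes an orphan nuclear receptor that activates *bmal* genes in vertebrates, the arm opposite to the repressors. It measured 9.54, 9.66 and 10.04 in wild-type replicates 2, 3 and 4, the reverse order to *per1b*, and 9.36, 9.27 and 9.60 in *vhl* mutants (log2 fold change -0.34, limma adjusted p = 0.166). *fbxl3a*, for the F-box protein that targets cryptochromes for degradation, varied little (SD 0.07 in wild-type) and had a log2 fold change of -0.19 (limma adjusted p = 0.107).

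Inputs to the clock other than HIF were looked at through 2 further lists. Of 22 light-responsive symbols, the DNA repair genes *ddb2* and *xpc* had a named probe and neither passed the threshold (log2 fold changes -0.10 and -0.34). Of 32 glucocorticoid-responsive and immediate early symbols 6 had one, of which 0 rose and 1 fell, against 1.67% and 1.55% of all probes. At an adjusted p of 0.05 with no fold limit 1 rose and 3 fell (11.7% and 12.7% of all probes). The groups did not overlap in these 4 of the 6, against 43.7% of all probes, and the 4 were already picked by that limit. The one that fell was *nr4a1*, an immediate early nuclear receptor, at -1.52 (limma adjusted p = 0.00298). *fkbp5*, a standard glucocorticoid target, measured 12.37, 11.80 and 12.20 in wild-type replicates 2, 3 and 4. Its log2 fold change was -1.07 (limma adjusted p = 0.0177). The others past the looser limit were *fosb*, an immediate early gene, at -0.98 (limma adjusted p = 0.0070), and *nr3c1*, the glucocorticoid receptor gene, at 0.59 (limma adjusted p = 0.0071). *nr4a1*, *fosb* and *nr3c1* were named only through the study's probe tables, which include genes selected on these same arrays. The called counts of this list are therefore not independent evidence. None of the 25 clock output symbols had a named probe. The part of light or glucocorticoids in the spread of *bhlhe40* and *per1b* was not tested.

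Whole embryos mix many cell types, and fewer cells of a type cannot be told apart from less RNA per cell. Photoreceptors and pineal cells of zebrafish sense light and hold clocks. Of 25 photoreceptor symbols 10 had a named probe, and their summed intensity ran from 553948 to 582823 in wild-type and from 205504 to 245902 in *vhl* mutants, with 6 lower and 0 higher at the threshold (1.55% and 1.67% of all probes). The sum is weighted towards the brightest probes, such as *opn1sw1* at log2 intensities of 17.44 to 17.57 in wild-type. Its small movement between wild-type pools does not show how the dimmer markers moved. The pineal markers *exorh* and *asmt*, 2 of 7 listed, summed to between 1820 and 2080 in wild-type and between 1459 and 1833 in *vhl* mutants. Skeletal muscle markers (2 of 13) ran from 266385 to 276204 in wild-type and from 271622 to 312155 in *vhl* mutants. Erythroid markers (2 of 9) summed to between 28936 and 31636 in wild-type and between 112447 and 175776 in *vhl* mutants, both higher at the threshold. Of 12 liver markers 6 had a named probe, of which 3 were higher and 0 lower, with sums of 252560 to 266795 in wild-type and 268731 to 298528 in *vhl* mutants. Of 9 lens markers 4 had one, with 1 higher and 0 lower. Of 10 neuron markers 3 had one, with 0 past the threshold. At the looser limit used above, liver had 3 higher and 1 lower, lens 1 and 1, and neuron 0 and 2. The lower ones were *serpina1* of liver (log2 fold change -0.87, limma adjusted p = 0.0047) and *cryaa* of lens (-1.24, 0.0145). For neuron they were *stmn2a* (-0.41, limma adjusted p = 0.0142) and *stmn2b* (-0.37, 0.0072). In each of them the *vhl* mutant arrays lay wholly below the wild-type arrays, as they did for 22.4% of all probes. The higher liver markers (*cp*, *fga* and *hpx*) and *hbbe2* of the erythroid markers were named only through the study's probe tables. So were *opn1sw1*, *opn1sw2*, *gnb3b* and *pde6c* among the lower photoreceptor markers. These tables include genes selected on these same arrays, so the called counts of these lists are not independent evidence. The part of cell makeup in the levels of the clock genes was not tested.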

How the data were processed

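RNA of 30 pooled embryos per sample (400 ng, RNA integrity number of at least 7 per the labels) was labelled with Cy3 and hybridised to 1 array per sample. Features were extracted by Agilent software (Feature Extraction, version 10.7.3.1). The deposited intensities used are median pixel values for spots and for the area around them, neither corrected nor scaled by the authors. The processed signal, also a deposited intensity, had its background removed and its spatial trend adjusted per array in that software, and each column of the series table equals it within rounding (0 columns belonged to no sample). Flags are deposited codes with no unit.

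Following the limma steps of the methods (version 3.24.10 per the labels), normexp with an offset of 50, which the methods do not state, was applied to all 45220 spots. Outlier-flagged zebrafish spots (15 to 63 per array) were set missing, 1264 positive and 153 negative control spots were removed, and the remaining 43803 spots were quantile-normalised and averaged into 41031 probes. Groups, taken from the titles, were compared with lmFit and eBayes (limma 3.58.1, R 4.3.3) over all 6 arrays with no covariate, as *vhl* mutant minus wild-type, with p-values adjusted over all probes. The methods do not say whether their p of 0.01 was adjusted. The number of arrays limits precision.

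Probe accessions were matched to a RefSeq gene table (1752 probes, 4.27%), and 1407 more probes took symbols from the study's probe tables, from which only names were used. Named genes were the members, members of the lists, *egln3* as a check, and the 5 RefSeq-named genes most like each member. The members and lists were chosen with earlier results of these data known. The limma step was tested on simulated data. Alternatives covered the background correction, offset, normalisation, signal, spots, dim probes, variance model, array weights, a replicate block, thresholds and each array left out.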

Additional observations from a re-analysis of the deposited data

How the results depend on the processing

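Neither gene passed the threshold under any of the 27 alternatives tried for its change. With medians scaled to each other *bhlhe40* and *per1b* turned to -0.35 and -0.24. With the 2 spots of high local background left out as well, a setting chosen after seeing the data, they were 0.12 and 0.21. Leaving out 1 array gave -0.025 (without wild-type replicate 4) to 1.05 for *bhlhe40*, 0.11 to 0.83 for *per1b* and -0.48 to 0.57 for the difference between the genes, which turned positive without *vhl* mutant replicate 1 and stayed below 0 otherwise. Replicate numbers 3 and 4 occur in both groups, but deviations of same-numbered arrays correlated at only 0.00568 and 0.0133 across probes. The main fit did not pair the samples, and the labels do not say whether same-numbered pools belong together. With the replicate number as a block *bhlhe40* was 1.43 (adjusted p = 0.0384) and *per1b* 0.81 (adjusted p = 0.144), and 311 probes were called. That fit takes the change from replicate numbers 3 and 4 alone, where *bhlhe40* differed by 0.93 and 1.93. Wild-type replicate 2 and *vhl* mutant replicate 1, the array lowest in *bhlhe40*, have no same-numbered partner and add nothing to it.

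The count of probes called (1322, 687 higher and 635 lower) was 9 (9 higher and 0 lower) with 75th percentile scaling, 245 (46 and 199) with median scaling, 3 (3 and 0) without normalisation, 2073 (513 and 1560) without normalisation and with those spots left out, 2871 (2093 and 778) with the processed signal at the 75th percentile, and 10029 at an adjusted p of 0.05 with no fold limit. With those spots left out it was 1932 (559 and 1373) after median scaling and 1937 (1213 and 724) after 75th percentile scaling, where the median of all probes shifted by 0.28. The median of all probes shifted by 0.71, 0.11, 0.56 and 0.33 under 75th percentile scaling, median scaling, no normalisation and the processed signal at the 75th percentile. Leaving out 1 array gave 379 (without wild-type replicate 3) to 2136 (without *vhl* mutant replicate 1), with 615 and 475 without wild-type replicates 2 and 4. The call of *cry4* (1 of the 7 clock genes) was lost, leaving 0, with 75th percentile scaling, median scaling and no normalisation, and held in the other alternatives, the same scalings with those spots left out included. The causes were not tested.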
